A study of Mus musculus with 4 samples.

Results

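The antioxidant and glutathione genes are the 38 genes named here that remove superoxide and peroxides, make or use glutathione, run the thioredoxin cycle or belong to the Nrf2 pathway. For each gene, the probe set with the highest mean over the 4 arrays was used, out of those that map to 1 gene symbol. By this rule 35 of the 38 genes could be followed, of 15102 genes in all. Prdx1 was not followed because its 5 probe sets carry a second symbol, and Prdx5 and Prdx6 had no probe set with a single symbol in the table used. The 35 genes comprised 11 of 14 for superoxide and peroxide removal, 5 of 5 for thioredoxin, 13 of 13 for glutathione and 6 of 6 for the Nrf2 pathway.

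RNA came from the tibialis cranialis, a muscle of the front of the lower leg, of 8 male C57Bl/6 mice. All of them had been moved from chow to a high fat diet at 8 weeks of age, and neither group was kept on chow. The ProMyo group is the muscle that received AAV8 ProMyo by intramuscular injection at 4 weeks on the diet, and the saline group is the same muscle of the opposite leg, injected with saline. Both were taken 10 weeks after injection, at 22 weeks of age. AAV8 is an adeno-associated viral vector, and ProMyo is understood to be the propeptide of myostatin, which holds this growth inhibitor in an inactive form. The promoter of the vector is not given in the labels, and no leg received an empty vector, so effects of the vector and of its product cannot be told apart. RNA of 4 animals was mixed for each array, from animals 1-4 or animals 5-8, which gave 2 ProMyo arrays and 2 saline arrays. Animal-to-animal spread within a pool is therefore not visible. Whole muscle was used, so a smaller number of cells of a type and less RNA per cell cannot be told apart.

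Values are on the log2 scale, where 1 unit is a doubling, and each difference is ProMyo minus saline. Probe sets differ in how brightly they bind, so levels of different genes are not set against each other. Background was taken as the highest of 27 Bacillus control probe sets on each array, which lay at 0.68 and 0.57 on the ProMyo arrays (animals 1-4 and 5-8) and at 0.76 and 0.99 on the saline arrays. Of the 35 genes, 33 were above background on all 4 arrays. Gss was above it on 3 arrays and Slc7a11 on 1. The saline array of animals 5-8 stood apart, with spiked-in hybridization controls at a mean of 11.1 against 10.1 to 10.2 on the other 3 and an upper quartile of 2.97 against 3.15 to 3.19. The 3' over 5' signal of Gapdh, which moves with RNA integrity and amplification, was 0.58 and 0.74 log2 units on the ProMyo arrays and 0.90 and 0.81 on the saline arrays. Its part in the results below was not tested. Markers of muscle fibres (Ckm, Acta1, Myh4, Tnnt3 and Atp2a1) were above background on all arrays, and their summed level was 14.1 on both ProMyo arrays and 13.9 to 14.0 on the saline arrays.

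Contracting muscle releases superoxide from its mitochondria and from membrane oxidases. Superoxide dismutases turn it into hydrogen peroxide, which catalase, the glutathione peroxidases and the peroxiredoxins then reduce. Glutathione and thioredoxin supply the electrons and are themselves restored by reductases that draw on NADPH. The transcription factor Nrf2, encoded by Nfe2l2, raises many of these genes when oxidants or electrophiles release it from its inhibitor Keap1.

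Nrf2 binds, with a small Maf protein, to the antioxidant response element, whose core is TGACNNNGC. This core was searched on both strands in the 250 bases before each RefSeq gene start (build GRCm38.p6). Promoter windows were at hand for 32 of the 38 genes, and 7 of these genes held a core, which is 21.9%, against 11.5% of 27025 genes of the same table. A match is a run of letters and does not show binding. In the Nrf2 pathway class only Nfe2l2 held a core. Keap1, Nqo1, Srxn1 and Slc7a11 held none in this window, and Hmox1 had no window. Gclc, Gsr and Gsta4 of the glutathione class had no window either, nor did Sod3 and Prdx6. The search therefore does not show which genes Nrf2 reaches. The stretches around the 7 matches are given because the core is the sequence feature to which Nrf2 binds. They run 5′ to 3′ on the strand of the gene with the core in capitals, and a core on the opposite strand appears as its reverse complement.
Txnrd1 (chr10:82859098-82859138, plus strand): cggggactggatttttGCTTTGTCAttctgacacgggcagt
Prdx1 (chr4:116685450-116685490, plus strand): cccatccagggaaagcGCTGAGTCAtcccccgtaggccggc
Gclm (chr3:122245407-122245447, plus strand): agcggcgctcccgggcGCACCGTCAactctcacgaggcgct
Mgst1 (chr6:138140455-138140495, plus strand): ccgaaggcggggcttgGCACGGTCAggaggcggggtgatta
Sod1 (chr16:90220690-90220730, plus strand): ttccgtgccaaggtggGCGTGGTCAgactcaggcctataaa
Gstm5 (chr3:107895796-107895836, plus strand): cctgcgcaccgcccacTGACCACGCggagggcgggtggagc
Nfe2l2 (chr2:75704879-75704913, minus strand): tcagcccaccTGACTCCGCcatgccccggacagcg
The cores of Sod1 and Mgst1 begin 56 bases before the start, that of Gstm5 42 bases, that of Txnrd1 92 bases, those of Prdx1 and Gclm 133 and 134 bases, and that of Nfe2l2 240 bases. Of the 6 genes in this set that were followed on the arrays, Gclm differed most, by 0.20 ± 0.20 (SE), and the other 5 lay between -0.03 and 0.10.

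The comparison asks what AAV8 ProMyo did to these genes in muscle under a high fat diet. Gpx3, the secreted glutathione peroxidase, had the lowest difference at -0.55, and Hmox1, heme oxygenase 1, had the highest at 0.44. In both pools 9 genes were higher in ProMyo muscle and 7 were lower, which is 25.7% and 20%, against 29% and 24% of all genes tested. The median difference was 0.04 for the 35 genes and 0.01 for all genes, and with quantile normalization, where its sign turned, it was -0.03 for the 35 genes and -0.02 for all genes. The sign of the median also turned without the saline 5-8 array, at -0.04 for the 35 genes and -0.02 for all genes.

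No gene passed limma's test with Benjamini-Hochberg adjustment over all 15102 genes, so the share called was 0% and 0 of the 35 were called (smallest adjusted p = 0.82). At an unadjusted p under 0.05 there were 2 of the 35, Gpx3 and Hmox1, against 5.79% of all genes. No gene of the list was 1.5-fold apart in the same direction in both pools, where 1.03% of all genes were at least 1.5-fold higher and 0.563% at least 1.5-fold lower. For 16 of the 35 genes the 95% interval of the difference lay within 1.5-fold either way, against 30.7% of all genes, and for 32 it lay within 2-fold. With an array left out, the lone array of its group was compared with both arrays of the other group. By this other rule 14 genes were lower without the saline 5-8 array and 11 without the ProMyo 1-4 array. Without the saline 1-4 array 16 were higher. The share of all genes under this rule was not taken, so these counts are not set against the within-pool counts.

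**Figure D1:**
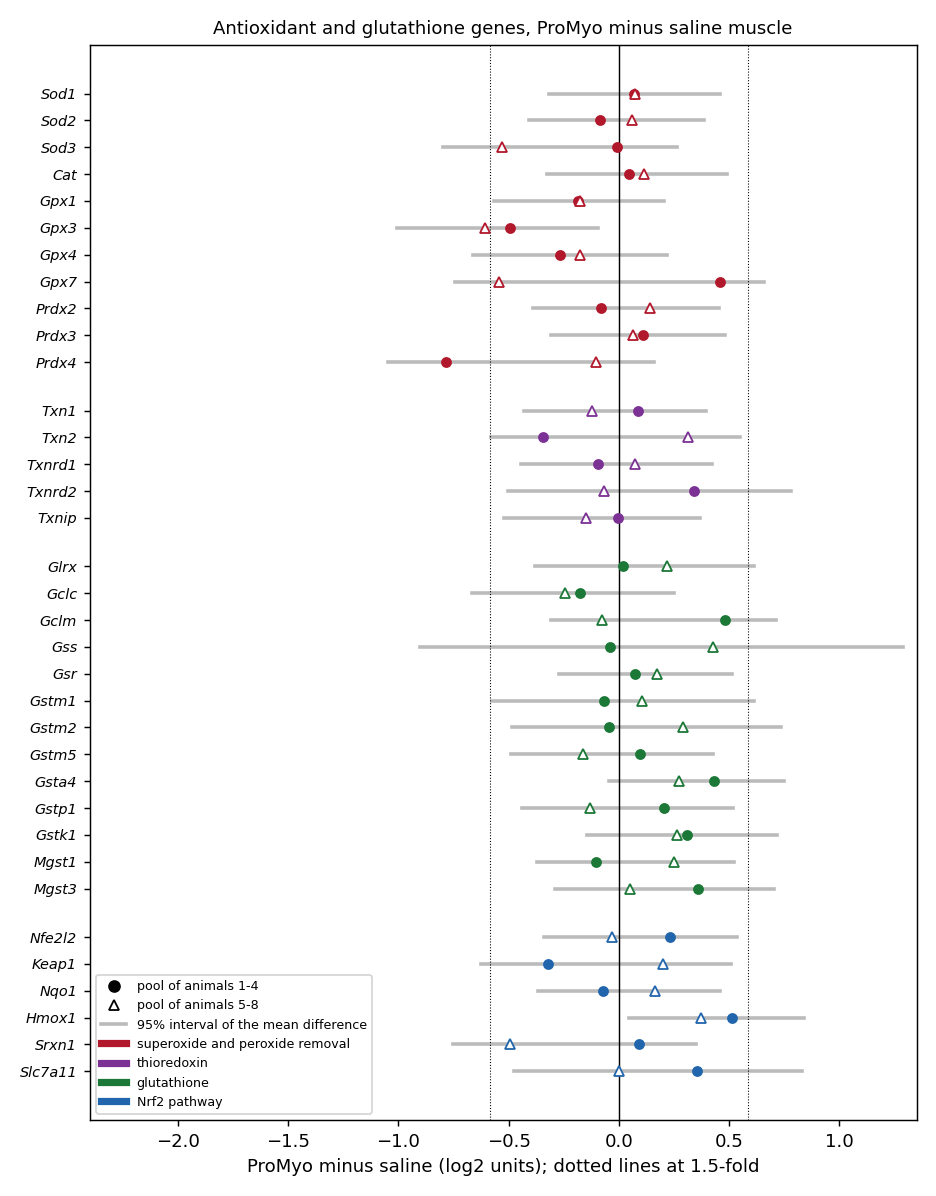
Difference between ProMyo and saline muscle (log2 units, horizontal axis) for the 35 genes, grouped by role; circles are the pool of animals 1-4, open triangles the pool of animals 5-8, and grey bars the 95% interval of the mean difference from limma. No gene lies beyond the dotted 1.5-fold lines in both pools, and the bars of Gpx3 and Hmox1 do not cross 0.

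Sod1, Sod2 and Cat differed by less than their standard errors, and Sod3 was lower with ProMyo, nearly all of it in animals 5-8. Sod1, the cytosolic copper-zinc dismutase, read 10.72 and 10.71 in ProMyo muscle (animals 1-4 and 5-8) and 10.65 and 10.64 in saline muscle. Both ProMyo arrays were above both saline arrays, but the difference of 0.07 ± 0.15 (SE, n = 2 pools per group) was less than its error, and its 95% interval ran from -0.32 to 0.46. This error leans on the spread of all genes, since the pools of each group lay closer, with SDs of 0.0072 and 0.0083. The 4 probe sets of Sod1 above background gave differences of -0.06 to 0.31. Sod2, the manganese enzyme of mitochondria, read 9.58 and 9.68 with ProMyo, against 9.67 and 9.62 with saline, and its groups overlapped. Cat, the peroxisomal catalase, read 9.35 and 9.49 with ProMyo, against 9.30 and 9.38 with saline, a difference of 0.08 ± 0.16 with a 95% interval of -0.33 to 0.49. Sod3, the extracellular dismutase, was dim at 1.47 and 1.40 with ProMyo, against 1.48 and 1.93 with saline. Its difference of -0.27 ± 0.21 came from the pool of animals 5-8, where it was -0.53, against -0.01 in animals 1-4.

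Most glutathione peroxidases use glutathione to reduce peroxides. At the brightest probe set 3 of the 4 genes of this family followed here had both ProMyo values under both saline values, an order that 15.7% of all genes had. For 1 of the 3, Gpx4, the other probe set had the opposite order. Gpx3, which is secreted and is the main form in plasma, read 7.24 and 6.97 with ProMyo, against 7.73 and 7.58 with saline. The groups did not overlap, with differences of -0.49 in animals 1-4 and -0.61 in animals 5-8. Saline muscle was 1.46-fold above ProMyo muscle, and the difference of -0.55 ± 0.18 (95% interval -1.01 to -0.09) did not pass the test over all genes (limma, adjusted p = 0.82). Leaving out each array in turn gave -0.42 to -0.68. Gpx3 was at least 1.5-fold lower against both saline arrays when the ProMyo 1-4 array was left out. It is measured by 1 probe set, so no other reading of it was at hand. Of 8 fibroblast markers 6 were lower in both pools, against 24% of all genes. These were Pi16 (-0.96), Col1a2 (-0.78), Col1a1 (-0.68), Thy1 (-0.35), Col3a1 (-0.19) and Pdgfra (-0.10). Dcn had opposite signs in the pools, and Lum was higher by 0.63 with no overlap of the groups. The summed level of the 8 markers was 9.86 and 9.83 with ProMyo, against 10.15 and 10.30 with saline. Adipocyte markers, of which 4 of 7 passed the filter, summed to 9.69 on both ProMyo arrays and to 9.69 and 9.80 on the saline arrays. This sum is nearly all Fabp4, which read 9.67 and 9.68 with ProMyo, against 9.67 and 9.78 with saline. Among the dim markers, Retn was lower in both pools, by -0.23 and -0.69. Adipoq differed by 0.27 in animals 1-4 and -1.47 in animals 5-8, and Lep also had opposite signs. Of 6 slow fibre markers 4 (Myl2, Myl3, Tnnc1 and Tnnt1) were lower in both pools, against 24% of all genes. Tnni1 was higher, though above background on only 2 arrays, and Myh7 had opposite signs. Myl2 differed by -1.80 and -1.89, the lowest mean difference of all genes tested. The 6 markers summed to 7.55 and 7.34 with ProMyo, against 8.07 and 7.69 with saline. This sum is mostly Myl3, which read 7.31 and 7.12 with ProMyo, against 7.72 and 7.41 with saline. The part of these cell and fibre types in the Gpx3 difference was not tested.

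Gpx1, the cytosolic enzyme, read 5.81 and 5.82 in ProMyo muscle and 5.99 on both saline arrays. The groups did not overlap and the differences of -0.19 and -0.18 were alike in both pools, but the 95% interval ran from -0.57 to 0.21. Gpx4, which reduces lipid peroxides in membranes, read 7.13 and 7.00 with ProMyo, against 7.40 and 7.17 with saline at its brightest probe set. That difference of -0.22 ± 0.17 has no settled direction, since the other probe set of Gpx4 read 5.51 and 5.33 with ProMyo, against 5.17 and 4.95 with saline, a difference of 0.36. Gpx7, a peroxidase of the endoplasmic reticulum, differed by 0.46 in animals 1-4 and by -0.54 in animals 5-8.

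**Figure D2:**
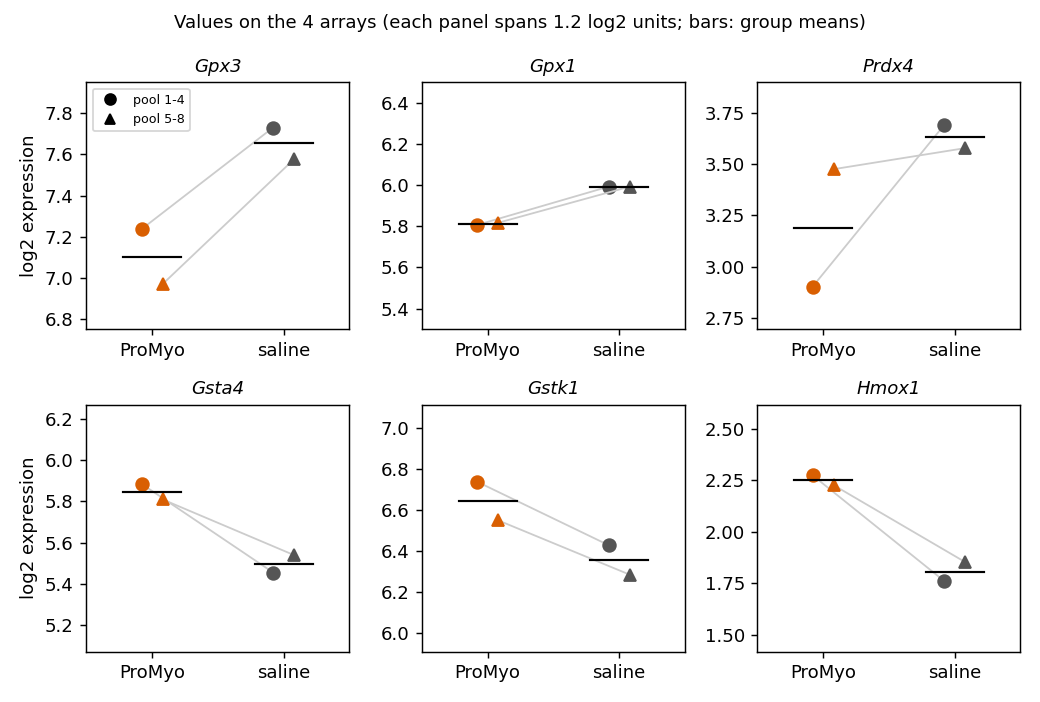
Log2 expression on each of the 4 arrays for 6 genes, with ProMyo on the left and saline on the right of each panel; circles are animals 1-4, triangles animals 5-8, grey lines join legs of the same animals and black bars are group means of 2 arrays. In all 6 panels the ProMyo arrays lie on one side of the saline arrays, below them for Gpx3, Gpx1 and Prdx4 and above them for Gsta4, Gstk1 and Hmox1. The 6 are among the genes of the list without overlap, so the panels do not show how common this order is. Of all genes tested, 17.8% had both ProMyo arrays above and 15.7% below. The brightest probe set is shown. A second probe set of Prdx4 gave a mean difference of 0.56, from -0.48 in animals 1-4 and 1.59 in animals 5-8.

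Peroxiredoxins reduce peroxides through a reactive cysteine, with thioredoxin as the usual donor. Prdx3, the mitochondrial form, read 7.83 and 7.75 with ProMyo, against 7.72 and 7.69 with saline, a difference of 0.09 ± 0.15. Prdx2, a cytosolic form abundant in red blood cells, differed by 0.03 ± 0.17 with opposite signs in the pools. Prdx4, the form of the endoplasmic reticulum, read 2.90 and 3.47 with ProMyo, against 3.69 and 3.58 with saline. Its difference was -0.79 in animals 1-4 and -0.10 in animals 5-8. A second probe set above background gave a mean of 0.56, from -0.48 in animals 1-4 and 1.59 in animals 5-8. At that probe set the saline 5-8 array read 1.48, against 2.68 to 3.16 on the other arrays. The means of these probe sets thus oppose each other only through animals 5-8. Of the 11 genes of superoxide and peroxide removal, 3 were higher in both pools and 5 lower (29% and 24% of all genes were), and the ProMyo arrays were under the saline arrays without overlap in the same 5 (Gpx3, Gpx1, Gpx4, Prdx4 and Sod3). Over all 35 genes, at the brightest probe set, these 5 were the only ones with that order, which is 14.3%, against 15.7% of all genes. Sod3 is among them by a difference of only -0.01 in animals 1-4. The class median was -0.04, and it lay between -0.16 and -0.04 without each array in turn.

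At the brightest probe set the groups overlapped in all 5 thioredoxin genes, but other probe sets of Txn1 and Txn2 separated them. Thioredoxins reduce disulfides in proteins, and their reductases recharge them. Txn1, the cytosolic thioredoxin, read 6.96 and 6.78 with ProMyo, against 6.87 and 6.90 with saline. Txnrd1, the cytosolic reductase, read 8.34 and 8.27 with ProMyo, against 8.43 and 8.20 with saline. Their differences of -0.02 ± 0.16 and -0.01 ± 0.17 had 95% intervals of -0.43 to 0.40 and -0.44 to 0.42. A dimmer probe set of Txn1 read 0.97 and 0.74 with ProMyo, against 1.00 and 1.45 with saline, a difference of -0.37 that came mostly from animals 5-8. Txnip binds and inhibits thioredoxin, restrains glucose uptake and responds to glucose. It read 9.62 and 9.37 with ProMyo, against 9.63 and 9.52 with saline, a difference of -0.08 ± 0.17.

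The mitochondrial thioredoxin Txn2 had readings that depended on the probe set. At its brightest probe set the difference was -0.34 in animals 1-4 and 0.31 in animals 5-8. Its other 2 probe sets gave means of 0.29 and 0.49 and were positive in both pools. The groups did not overlap at the second of them, which read 5.11 and 4.83 with ProMyo, against 4.69 and 4.28 with saline. Txnrd2, the mitochondrial reductase, differed by 0.34 in animals 1-4 and -0.07 in animals 5-8. The class median was -0.01, and without each array in turn it ran from -0.13 (without saline 5-8) to 0.03 (without ProMyo 5-8).

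Among the glutathione genes 5 of 13 were higher in both pools and 1 was lower, against 29% and 24% of all genes, and none passed the test. The median difference was 0.12. Single arrays set its size: it was 0.01 when ProMyo 1-4 was left out, 0.03 when saline 5-8 was, 0.21 when ProMyo 5-8 was and 0.24 when saline 1-4 was. Gsta4, an alpha class glutathione transferase that clears the lipid peroxidation product hydroxynonenal, read 5.89 and 5.81 with ProMyo, against 5.45 and 5.54 with saline. Both ProMyo arrays were above both saline arrays, by 0.43 in animals 1-4 and 0.27 in animals 5-8. ProMyo muscle was 1.28-fold above saline muscle, with a difference of 0.35 ± 0.16 and a 95% interval of -0.05 to 0.75 (limma, adjusted p = 0.83).

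Gstk1, the kappa class transferase of mitochondria and peroxisomes, read 6.74 and 6.55 with ProMyo, against 6.43 and 6.29 with saline. The groups again did not overlap, and the differences were 0.31 and 0.26, a mean of 0.29 ± 0.17. Mgst3, a membrane-bound transferase, was higher by 0.36 in animals 1-4 and by 0.05 in animals 5-8. Its relative Mgst1 differed by 0.07 ± 0.18, with opposite signs in the pools. Gstp1, the pi class transferase, read 9.50 and 9.15 with ProMyo, against 9.30 and 9.28 with saline, and its groups overlapped. The mu class genes Gstm1, Gstm2 and Gstm5 differed by 0.02, 0.12 and -0.03, each with opposite signs in the pools. These 3 are close relatives, and signal shared between them was not tested.

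Glutathione is made in sequence by glutamate-cysteine ligase and glutathione synthetase, and its oxidized form is restored by glutathione reductase. Gclc, the catalytic subunit of the ligase, was the 1 gene of the class lower in both pools, by -0.18 and -0.24, but a dimmer probe set read 0.32 and 0.15. Gclm, the modifier subunit, differed by 0.48 in animals 1-4 and -0.08 in animals 5-8 at its brightest probe set. Its dimmer one read 2.18 and 2.10 with ProMyo, against 1.72 and 1.56 with saline, a difference of 0.50. Gss, the synthetase, was at 0.23 on the saline 5-8 array, within background, and its 95% interval of -0.90 to 1.29 was the widest of the list. Gsr, the reductase, read 6.88 and 6.92 with ProMyo, against 6.81 and 6.75 with saline. Its groups did not overlap, and its difference of 0.12 ± 0.15 was within its error. Glrx, glutaredoxin, which uses glutathione to reduce mixed disulfides, differed by 0.12 ± 0.20.

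In the Nrf2 pathway the groups overlapped for the regulators Nfe2l2 and Keap1 and for the target Nqo1, and did not overlap for Hmox1. Hmox1, which breaks down heme and is induced by Nrf2, read 2.27 and 2.23 with ProMyo, against 1.76 and 1.85 with saline. Both ProMyo arrays were above both saline arrays, and all 4 were above background though dim. ProMyo muscle was 1.36-fold above saline muscle, with a difference of 0.44 ± 0.16 and a 95% interval of 0.05 to 0.84 that did not pass over all genes (limma, adjusted p = 0.82). Macrophages are a main site of Hmox1, and 5 of 9 macrophage markers were lower in both pools, against 24% of all genes. Cd163, a scavenger receptor for hemoglobin, was higher by 0.37 with no overlap of the groups. The summed level of the 9 markers was 8.03 and 7.87 with ProMyo, against 8.30 and 8.08 with saline, and the part of macrophages in the Hmox1 difference was not tested. Red blood cell markers could hardly be read, with 2 of 10 above the filter. Hba-a2, a globin chain, read 5.30 and 5.07 with ProMyo, against 4.90 and 4.72 with saline, and its part in the Hmox1 difference was not tested.

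Nfe2l2 read 5.04 and 5.03 with ProMyo, against 4.80 and 5.06 with saline, a difference of 0.10 ± 0.17. Keap1 read 4.73 on both ProMyo arrays and 5.06 and 4.53 on the saline arrays, so its saline values enclosed the ProMyo ones. Nqo1, a quinone reductase and a common readout of Nrf2, read 5.51 and 5.58 with ProMyo, against 5.58 and 5.41 with saline, with a 95% interval of -0.37 to 0.46. Srxn1, sulfiredoxin, which repairs overoxidized peroxiredoxins, differed by 0.09 in animals 1-4 and -0.50 in animals 5-8, and 2 other probe sets above background gave -0.27 and 0.20. Slc7a11, the cystine carrier that feeds glutathione synthesis, was within background on 3 arrays and is not read further. Of the 6 genes only Hmox1 had the same sign in both pools, and the class median was 0.07.

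**Figure D3:**
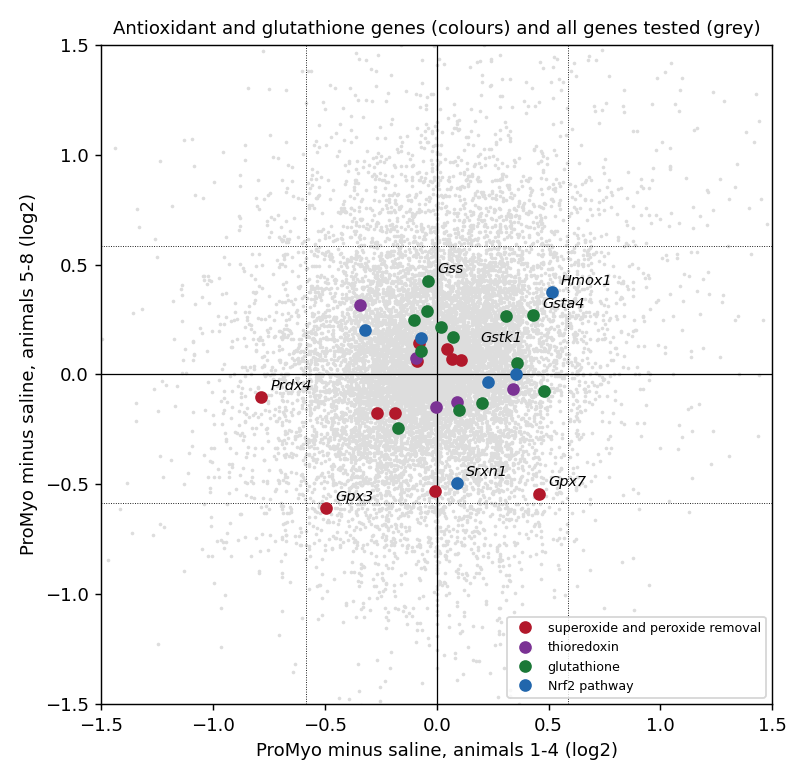
Difference between ProMyo and saline muscle in animals 5-8 (vertical axis, log2) against that in animals 1-4 (horizontal axis, log2), for the 35 genes in colour by role and for all 15102 genes in grey; 58 grey genes lie outside the axes, and dotted lines mark 1.5-fold. Gpx3 sits at -0.49 and -0.61 and Hmox1 at 0.51 and 0.37, and none of the 35 lies past the dotted lines in the same direction in both pools.

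Over the whole list, both ProMyo arrays lay above both saline arrays in 6 genes (Sod1, Prdx3, Gsr, Gsta4, Gstk1 and Hmox1), which is 17.1%, against 17.8% of all genes. Readings from different probe sets of the same gene give a second measure of error. Of the 35 genes, 15 had more than 1 probe set above background on all 4 arrays, and in 10 of these the probe sets differed in sign. The span between probe sets was 1.00 for Prdx4, 0.58 for Gpx4, 0.50 for Txn2, 0.46 for Srxn1 and 0.45 for Gclc, with a median of 0.30. It was 0.03 for both Cat and Gstm1 and 0.16 for Sod2. The span of Prdx4 came mostly from animals 5-8, where its second probe set differed by 1.59, against -0.48 in animals 1-4. Gpx3, Gpx1, Gsta4, Gstk1 and Hmox1 had 1 probe set above background each and no such check.

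**Figure D4:**
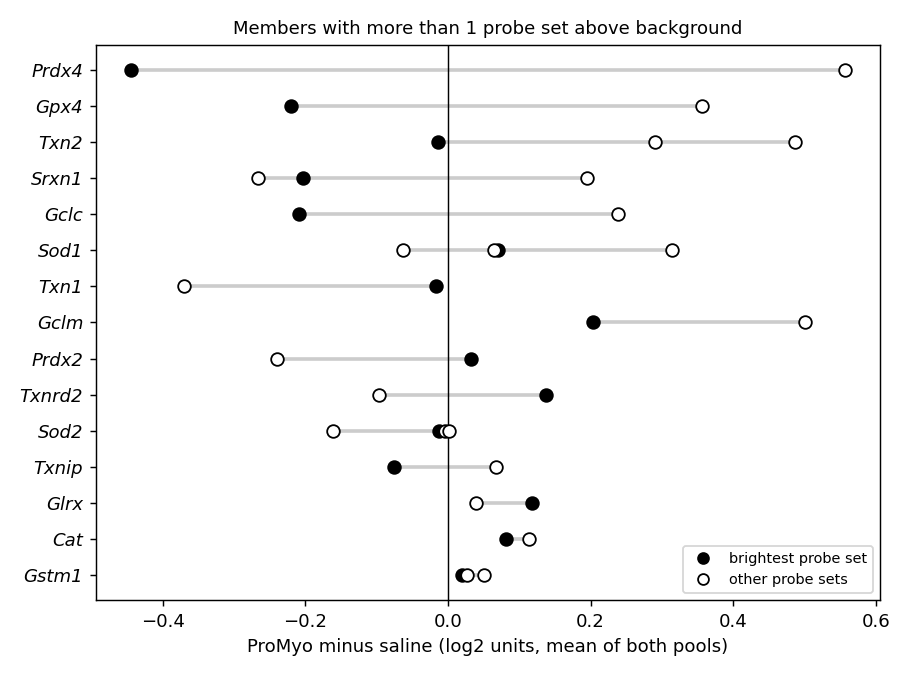
Mean difference between ProMyo and saline muscle (log2 units, horizontal axis) at each probe set above background, for the 15 genes with more than 1; filled points are the brightest probe set and open points the others. Probe sets of Prdx4, Gpx4, Txn2, Srxn1 and Gclc lie on both sides of 0, while those of Cat and Gstm1 nearly coincide.

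A further list of 78 redox genes outside the 38, drawn from the same pathways, had 71 members above the filter. Of these 21 were higher in both pools and 11 lower, which is 29.6% and 15.5%, against 29% and 24% of all genes. The median difference was 0.06, and 0 passed limma's test over all genes. The 4 lowest were Gstt1, a theta class glutathione transferase, at -0.54 ± 0.32, Mgst2, a microsomal transferase that was within background on 3 arrays, at -0.53, Cybb, the catalytic subunit of the phagocyte NADPH oxidase, at -0.47 ± 0.22, and Hagh, which completes the removal of methylglyoxal, at -0.32 ± 0.16. Hagh read 5.10 on both ProMyo arrays and 5.47 and 5.36 on the saline arrays, and Cybb read 1.40 and 1.66 with ProMyo, against 1.78 and 2.23 with saline. Neither gene's groups overlapped, and the lower macrophage markers given with Hmox1 moved with Cybb, in which their part was not tested. The 4 highest were Txnrd3, a thioredoxin reductase, at 0.51 ± 0.35, Nxn, nucleoredoxin, at 0.43 ± 0.38, Cyba, the partner subunit of Cybb, at 0.37 ± 0.18, and Ggt5, which cleaves glutathione conjugates, at 0.35 ± 0.24. Txnrd3 and Nxn were high against the saline 5-8 array alone, with differences of 1.06 and 0.81 in animals 5-8 and of -0.04 and 0.05 in animals 1-4. Ggt5 had the same pattern, with 0.67 in animals 5-8 and 0.02 in animals 1-4.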

How the data were processed

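RNA was measured on 4 Affymetrix arrays, 2 per group, each a mixture from 4 animals. The deposited values are log2 expression of each probe set. The submitters' processing notes name RMA and Affymetrix Expression Console as the authors' tools, without versions. The log base is not stated and was read from the range of -0.45 to 13.2. Symbols came from the platform's probe table, matched by gene identifier to RefSeq (GRCm38.p6). Of 45101 probe sets, 64 were array controls and left out, 34945 had 1 symbol, 932 had several and 9160 had none. The brightest probe set per gene was kept, and 15102 genes whose mean reached the 25th percentile of probe sets (0.45) were tested. The groups were compared in limma 3.58.1 (R 4.3.3; lmFit and eBayes, 2 residual and 3.16 prior degrees of freedom), p-values being adjusted by Benjamini-Hochberg and called under 0.05; errors are its moderated standard errors. The step was tested on simulated data. Arrays have no read depth, and their number limits precision (median standard error 0.19). With 2 arrays per group p-values draw on the spread between pools, pulled toward the spread of all genes by the prior. For Sod1 the SD was 0.0072 with ProMyo and 0.0083 with saline, while the moderated SE was 0.15. Both legs came from the same mice, so same-numbered pools are paired by design (correlation of their deviations from group means, r = 0.16); the main comparison left the pairing out and the blocked fit was an alternative. All 38 genes are named; of the other redox genes, the 4 highest and 4 lowest. The genes, lists, tests and alternatives were chosen with earlier results of these data known. Promoter sequences are from RefSeq.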

Additional observations from a re-analysis of the deposited data

How the results depend on the processing

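The counts of called genes, 0 overall and 0 of the list, were 0 under all 12 alternatives run, including limma with the pools as a replicate block, with the paired pools giving 0 calls and a smallest adjusted p of 0.68. With the mean of probe sets the Nrf2 pathway median was 0.011. With the second brightest probe set, which 21 of the 35 genes had, 4 genes were lower in both pools. The medians were 0.065 for superoxide and peroxide removal, 0.32 for glutathione and -0.17 for the Nrf2 pathway. The last rests on Nfe2l2 (-0.08) and Srxn1 (-0.27) alone, and this Nfe2l2 probe set was above background on 1 array. The glutathione median is the value of Gss, above background on 1 array, and those of Gsr and Mgst3 were above it on 2. With quantile normalization the medians were -0.14 for superoxide and peroxide removal, -0.080 for thioredoxin, 0.055 for glutathione and 0.0016 for the Nrf2 pathway. Leaving out each array gave 9 to 16 genes higher, 8 to 14 lower and 0 to 1 at least 1.5-fold apart against both remaining comparisons. The 1 was Gpx3 without ProMyo 1-4 and Prdx4 without ProMyo 5-8. These comparisons set the lone array against both arrays of the other group. Their counts therefore follow another rule than the within-pool counts, and the share of all genes under it was not taken. Without each array the medians ran from -0.16 to -0.042 for superoxide and peroxide removal, -0.13 to 0.035 for thioredoxin, 0.013 to 0.24 for glutathione and 0.03 to 0.13 for the Nrf2 pathway. The cause of these shifts was not tested. Of genes with a main difference of at least 0.2, the sign changed for Gpx4 and Gclc with the mean of probe sets, for these, Sod3 and Prdx4 with the second brightest, and for Srxn1 without saline 5-8.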

Other observations

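NADPH is the electron source of both reductase systems. In a list for its supply, 4 of 7 genes above the filter were higher in both pools and 0 lower, against 29% and 24% of all genes. The median difference was 0.16. The 4 were Nnt, Idh1, Taldo1 and Tkt, of which Taldo1 and Tkt do not make NADPH themselves. Idh2, Me1 and Pgd had opposite signs in the pools. Nnt, the transhydrogenase of the inner mitochondrial membrane, read 8.09 and 8.14 with ProMyo, against 7.90 and 7.79 with saline, a difference of 0.27 ± 0.16 (SE, n = 2 pools per group). Nnt is disrupted in one widely used C57Bl/6 substrain, and the labels do not give the substrain. Idh1, the cytosolic isocitrate dehydrogenase, read 8.33 and 8.29 with ProMyo, against 8.14 and 8.18 with saline. Me1, malic enzyme, differed by 0.01 ± 0.16. None of these passed limma's test over all genes.

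Genes that repair oxidized methionine included Msrb1, a selenoprotein reductase, which read 8.08 and 7.89 with ProMyo, against 7.73 and 7.63 with saline, a difference of 0.30 ± 0.17 in which the groups did not overlap. Its relatives Msrb2, Msrb3 and Msra had opposite signs in the pools. The sestrins, which restrain mTOR, did not move as one: Sesn1 differed by 0.15 ± 0.16, while Sesn2 differed by -0.26 ± 0.16 and Sesn3 by -0.24 ± 0.21. Fth1, the ferritin heavy chain and an Nrf2 target, read 10.38 and 10.37 with ProMyo, against 10.12 and 10.25 with saline, a difference of 0.19 ± 0.16. Cul3, the ubiquitin ligase scaffold that works with Keap1, read 8.05 and 8.33 with ProMyo, against 7.93 and 7.94 with saline. These genes were named after their values were seen.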
